A study of Mus musculus with 6 samples.

Results

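A set of 9 genes at the balance between clotting and its prevention at the vessel wall was followed in the atria of old mice: F3, Tfpi, Thbd, Procr, Plat, Plau, Vwf, Nos3 and Entpd1. They were taken by symbol as coagulation, fibrinolysis and anticoagulant endothelial genes, with earlier results of these data known, and are 9 of the 54838 genes counted. The question they bear on is whether loss of protein kinase C epsilon (encoded by Prkce) moves genes related to thrombus risk in old atria. RNA of whole atria from 6 old mice of both sexes, with an average age given as 20.9 ± 0.43 months (the kind of error is not stated), was sequenced, 1 library per mouse, with 3 labelled wild type (WT) and 3 labelled PKC-epsilon knockout (KO). No treatment is given for any group. By the genotype field, WT mice are given as the line C57BL/6J and KO mice as JAX stock #004189, which differs from the library name for 4 libraries, and the labels describe the knockout allele no further.

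Clotting starts when tissue factor, the product of F3, binds factor VIIa and a cascade of proteases makes thrombin. Endothelial cells oppose it at several steps: tissue factor pathway inhibitor (Tfpi) blocks the first complex, thrombomodulin (Thbd) and the endothelial protein C receptor (Procr) turn thrombin into an activator of anticoagulant protein C, and the plasminogen activators (Plat, Plau) start the dissolution of fibrin. Von Willebrand factor (Vwf) tethers platelets, while nitric oxide from Nos3 and the removal of ATP and ADP by Entpd1 hold them back. Loss of endocardial anticoagulant function is a known theme in atrial thrombosis, and the atrial endocardium and vessels are sources of many of these transcripts.

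For 4 of the 6 libraries the library name and the genotype field give opposite genotypes, so the members' comparisons are given under both readings. The library name heads the table's columns and sets the main comparison, and the genotype field sets the second. Libraries are named here by library name: those labelled WT replicates 1, 2 and 3 and KO replicates 1, 2 and 3. By genotype field the WT libraries are WT replicate 1 and KO replicates 2 and 3, and the KO libraries are KO replicate 1 and WT replicates 2 and 3. Prkce was at 36.2, 11.7 and 30.2 CPM (counts scaled to a common library size) in the libraries labelled WT replicates 1, 2 and 3, and at 9.20, 5.15 and 28.6 CPM in those labelled KO replicates 1, 2 and 3. WT replicate 2 and KO replicate 3 therefore go against their library names, and KO replicate 2 and WT replicate 3 go against their genotype fields. Directions below are directions between labels.

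Total counts per library ran from 11574206 to 24138824. Expression of 4 Y-linked genes was present in 1 of 3 WT and 3 of 3 KO libraries by library name, and in 2 of 3 of each group by genotype field. With the Y-linked level as a covariate, 0 of the 9 members passed in either reading. All 12 endothelial markers were detected, with a summed level of 1334 to 1524 CPM in the libraries labelled WT and 1303 to 1577 CPM in those labelled KO. Pecam1, an endothelial adhesion molecule, was at 288 to 344 CPM and Cdh5, the endothelial cadherin, at 138 to 181 CPM. Nppa, an atrial cardiomyocyte gene, was at 9551 to 14725 CPM. Myl2, a ventricular myosin light chain, was at 251, 357 and 174 CPM in KO replicate 1 and WT replicates 2 and 3, whose genotype field is KO, and at 32.6, 25.7 and 33.4 CPM in WT replicate 1 and KO replicates 2 and 3, whose field is WT. It passed the test in that reading (3.09, SE 0.25, adjusted p = 0.00386, edgeR) and not by library name (-0.86, SE 1.33). The other ventricular markers tested, Myh7 and Hey2, overlapped between groups and did not pass. The summed level of the 4 ventricular markers, all detected, was 316.5 to 511 CPM where that field is KO and 76.9 to 316.3 CPM where it is WT. WT replicate 1 stood apart from the rest: the chi-square over its degrees of freedom was 46.8 to 61.9 in 4 of its 5 pairs, 29.8 with KO replicate 1 and 18.8 to 30.0 in the pairs without it. In bulk tissue, fewer cells of a type and less RNA per cell cannot be told apart.

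In the RefSeq promoter table (build GRCm38.p6) 4 members have an entry and 5 have none. Among the 4, Procr had the largest ratio of highest to lowest library (3.47). F3, Tfpi and Entpd1 had ratios of 1.55, 1.55 and 1.46. The stretches before the transcription start of these 4 members are shown. Each holds up to 250 bases before the RefSeq start, cut where the gene begins in GENCODE M21, written 5′ to 3′ on the strand of the gene. Capitals mark CACCC or its reverse complement GGGTG, a core bound by Krüppel-like factors such as KLF2 and KLF4, and TGANTCA, the AP-1 motif.
F3 (chr3:121723287-121723536, plus strand): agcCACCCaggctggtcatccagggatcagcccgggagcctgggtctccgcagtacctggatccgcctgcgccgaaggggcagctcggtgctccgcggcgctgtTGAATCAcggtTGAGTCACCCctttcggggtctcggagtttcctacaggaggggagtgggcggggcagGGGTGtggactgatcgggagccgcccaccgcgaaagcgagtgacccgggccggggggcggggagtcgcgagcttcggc
Tfpi (chr2:84476776-84477009, minus strand): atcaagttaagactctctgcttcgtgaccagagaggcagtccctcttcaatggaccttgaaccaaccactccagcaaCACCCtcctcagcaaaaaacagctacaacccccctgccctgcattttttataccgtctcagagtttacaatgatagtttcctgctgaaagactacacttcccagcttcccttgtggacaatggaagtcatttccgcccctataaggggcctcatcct
Procr (chr2:155750967-155751116, plus strand): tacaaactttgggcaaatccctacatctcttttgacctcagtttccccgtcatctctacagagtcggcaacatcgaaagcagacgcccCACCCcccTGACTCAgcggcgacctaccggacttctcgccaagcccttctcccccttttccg
Entpd1 (chr19:40612116-40612365, plus strand): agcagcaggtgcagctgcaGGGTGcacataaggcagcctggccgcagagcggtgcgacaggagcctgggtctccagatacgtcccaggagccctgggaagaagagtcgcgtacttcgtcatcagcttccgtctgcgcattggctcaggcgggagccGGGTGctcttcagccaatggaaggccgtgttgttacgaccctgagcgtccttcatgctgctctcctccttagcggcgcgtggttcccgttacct
CACCC was found 3 times before F3, 2 times before Entpd1 and 1 time each before Tfpi and Procr. One of the matches before F3 shares bases with an AP-1 match. On either strand, 52.0% of the 32851 stretches of 250 bases in the table hold CACCC. The stretches before Tfpi and Procr were cut to 234 and 150 bases. For these genes the shares given here are not at like length. The AP-1 motif was found 2 times before F3 and 1 time before Procr, against 6.75% of all stretches with at least 1 match. The shear stress element GAGACC, not in capitals, was found 2 times before F3 and 1 time before Entpd1, and 13.7% of all stretches hold it. An ETS core, CCGGAA, is held by 12% of all stretches and had no match in the 4 shown. A second ETS core, AGGAAG, is held by 29.5% of all and had no match there either. The motif of GATA factors, searched as AGATAA, was likewise without a match, and 9.99% of all stretches hold it. These are matches of letters, not binding sites.

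Per kilobase of exon, Tfpi, Thbd and Vwf stood highest among the members and Procr and Plau lowest. The mean level over the 6 libraries was 27.3 ± 3.9 CPM per kilobase (SD, n = 6) for Tfpi and 25.7 ± 2.6 for Thbd, ranges that overlap. Vwf had 19.5 ± 2.5 CPM per kilobase and F3 had 12.4 ± 1.8. Entpd1, at 8.69 ± 1.47, and Plat, at 8.63 ± 1.85, could not be told apart. Procr, at 2.48 ± 1.08, and Plau, at 2.1 ± 0.70 CPM per kilobase, could not be told apart either. Exon length is the union of annotated exons, and with the longest transcript in its place Vwf moved to 35.5 CPM per kilobase, above Thbd at 25.7 and next to Tfpi at 37.6, and Plat (13.3) moved above Entpd1 (11.5). The counting settings are not given, so it is not known whether reads in introns entered these levels. Nos3 is left out of this order because of how it was counted, described with its values.

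**Figure D1:**
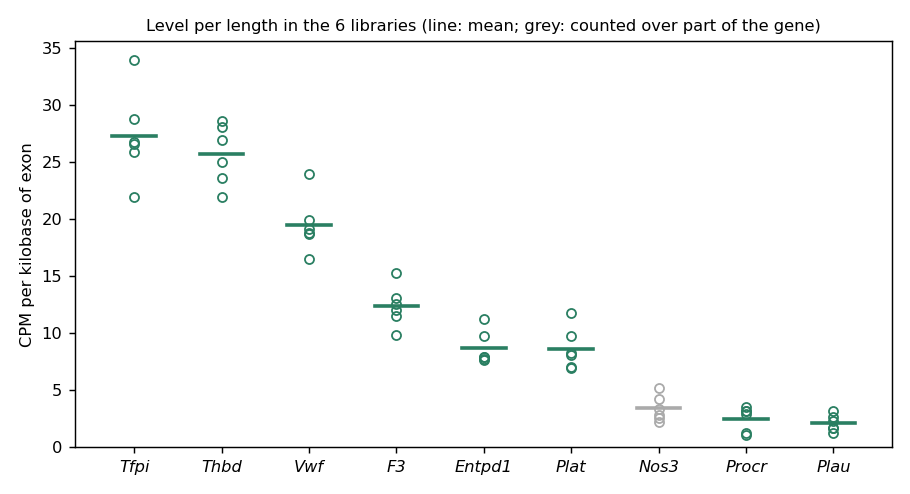
Level of each gene in CPM per kilobase of exon (vertical axis) in the 6 libraries (open points), with the mean as a line and genes ordered by mean. Tfpi, Thbd and Vwf lie above F3, and Procr and Plau lie lowest, with 2 libraries of Procr set below the other 4; Nos3, in grey, was counted over part of the gene.

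Between KO and WT, no member passed the test in either reading. By library name 4 members were higher and 5 lower in KO, and 0 of 9 passed, where 0.0% of the 14708 genes tested passed. All 9 members had passed the filter on low counts, and their log2 fold changes ran from -0.40 to 0.15, with SEs from 0.15 to 0.48. The adjusted p of each member was 0.99993 (edgeR, quasi-likelihood). The members' median log2 fold change was -0.02, the same to 2 decimals as that of all genes tested (-0.02). Before adjustment 0 of 9 members had p under 0.05 in edgeR, DESeq2 or limma-voom, against 1.49% of all genes in edgeR. Groups that do not overlap were seen for 0 of 9 members, against 5.95% of all genes. By genotype field 5 were higher and 4 lower, 0 of 9 passed against 0.0136% of all genes, and the median was 0.01 (all genes -0.01). The smallest adjusted p was 0.748, held by Nos3. Before adjustment Nos3 had p under 0.05 in edgeR, 1 of 9 members against 5.69% of all genes, or 4.34% counting only genes higher in KO. DESeq2 and limma-voom put 2 of 9 there, Nos3 and Procr, and called 0 members, though DESeq2 gave Procr no adjusted p. The share of all genes under 0.05 was taken in edgeR alone, so these counts have no like share beside them. Groups did not overlap for 1 of 9 members, against 12% of all genes, 4.49% with KO lower and the rest with KO higher.

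**Figure D2:**
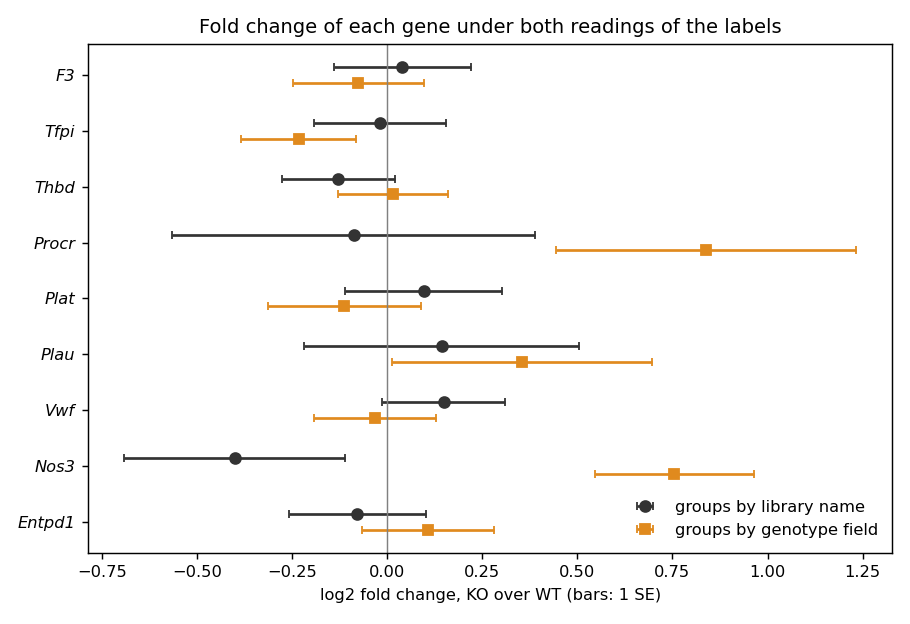
Log2 fold change of each gene, KO over WT, with bars of 1 SE, for groups by library name (circles) and by genotype field (squares). By library name the values lie between -0.40 and 0.15; by genotype field Nos3 and Procr lie at 0.76 and 0.84, and neither passed the test.

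F3, the initiator of clotting, and Tfpi, its inhibitor, did not pass the test, and their groups overlapped. F3 (ENSMUSG00000028128, chromosome 3 at 121723537 to 121735048, plus strand; all positions are GRCm38) was at 33.0, 30.5 and 29.0 CPM in the libraries labelled WT replicates 1, 2 and 3, and at 31.7, 38.5 and 24.9 CPM in KO replicates 1, 2 and 3. Its highest and its lowest library both carry the label KO and both carry the genotype field WT, so the groups overlap in either reading. The log2 fold change was 0.04 (SE 0.18) by library name and -0.08 (SE 0.17) by genotype field. Tfpi (ENSMUSG00000027082, chromosome 2 at 84432855 to 84476775, minus strand) was at 185.6, 120.1 and 145.5 CPM in WT replicates 1, 2 and 3, and at 146.3, 141.6 and 157.2 CPM in KO replicates 1, 2 and 3. WT replicates 1 and 2 are the highest and the lowest of all 6 libraries, with the 3 KO libraries between them. The log2 fold change of Tfpi was -0.02 (SE 0.17) by library name and -0.23 (SE 0.15) by genotype field.

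The protein C pathway held the steadiest and the most variable member. Thbd (ENSMUSG00000074743, chromosome 2 at 148404466 to 148408188, minus strand), the thrombin receptor of endothelium, was at 93.1, 100.2 and 106.5 CPM in WT replicates 1, 2 and 3, and at 81.7, 104.7 and 87.9 CPM in KO replicates 1, 2 and 3. Its highest library was 1.30 times its lowest, less than for any other member. By library name its mean was 91.4 ± 11.9 CPM in KO (SD, n = 3) and 99.9 ± 6.7 CPM in WT, and the groups overlap. By genotype field the means were 96.1 ± 12.9 and 95.2 ± 8.6 CPM, a log2 fold change of 0.01 (SE 0.15).

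Procr, the receptor that presents protein C to the thrombin and thrombomodulin complex, was 3.47 times higher in its highest library than in its lowest. The gene (ENSMUSG00000027611, chromosome 2 at 155751117 to 155755471, plus strand) had 34, 84 and 147 counts in WT replicates 1, 2 and 3 and 102, 88 and 51 counts in KO replicates 1, 2 and 3. These are 2.04 (95% Poisson interval 1.41 to 2.85), 7.07 (5.64 to 8.75) and 6.44 CPM (5.44 to 7.57) in WT, and 5.79 (4.72 to 7.03), 6.38 (5.12 to 7.86) and 2.50 CPM (1.86 to 3.28) in KO. WT replicate 1 and KO replicate 3 were thus low, with intervals below those of the other 4 libraries, which overlap one another. The low libraries carry different library names and the same genotype field, WT. By library name the log2 fold change was -0.09 (SE 0.48), and by genotype field it was 0.84 (SE 0.39, adjusted p = 0.881, edgeR), with the groups overlapping because KO replicate 2, whose field is WT, was high. Without KO replicate 2 the latter was 1.5, the highest value over the 18 alternatives. DESeq2 gave no adjusted p for Procr in this reading, and in the other alternatives it ran from 0.216 to 0.99998. Over all genes tested with counts in every library, the median ratio of highest to lowest library was 1.65, and over the members it was 1.55.

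Of the plasminogen activators, tissue type Plat had the higher mean level per kilobase (8.63 against 2.1 CPM per kilobase for urokinase type Plau), and neither passed the test. Plat (ENSMUSG00000031538, chromosome 8 at 22757727 to 22782844, plus strand) was at 44.0, 51.6 and 60.6 CPM in WT replicates 1, 2 and 3, and at 43.0, 73.6 and 50.5 CPM in KO replicates 1, 2 and 3. KO replicate 2 was the highest and KO replicate 1 the lowest, and the groups overlap in both readings. The log2 fold change of Plat was 0.10 (SE 0.21) by library name and -0.11 (SE 0.20) by genotype field. Plau (ENSMUSG00000021822, chromosome 14 at 20836660 to 20843385, plus strand) had 48 to 95 counts, which are 2.88, 7.41 and 3.95 CPM in WT replicates 1, 2 and 3, and 5.39, 6.16 and 4.01 CPM in KO replicates 1, 2 and 3. WT replicates 1 and 2 were its lowest and highest libraries. Its log2 fold change was 0.14 (SE 0.36) by library name and 0.35 (SE 0.34) by genotype field.

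Vwf, the platelet tether stored in endothelial Weibel-Palade bodies, was highest in KO replicate 2 and lowest in WT replicate 1. The gene (ENSMUSG00000001930, chromosome 6 at 125546774 to 125686679, plus strand) was at 264.8, 320.2 and 307.2 CPM in WT replicates 1, 2 and 3, and at 302.1, 385.6 and 300.8 CPM in KO replicates 1, 2 and 3. The other 4 libraries lie between 300.8 and 320.2 CPM and mix both labels. By library name the log2 fold change was 0.15 (SE 0.16), and by genotype field it was -0.03 (SE 0.16).

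Nos3, the endothelial nitric oxide synthase, was the one member whose groups did not overlap in a reading. The gene (ENSMUSG00000028978, chromosome 5 at 24364810 to 24384474, plus strand) has 9.91% of its body and 16.1% of its exon bases free of other annotated genes, here the antisense genes Atg9b and Gm15587. Of 1348 protein-coding genes with no free part, 98.1% have 0 counts in all 6 libraries, so the share of Nos3 reads that entered the table is not known, and the library kit does not mark strand. It was at 8.94 (95% Poisson interval 7.56 to 10.5), 21.5 (19.0 to 24.4) and 17.4 CPM (15.7 to 19.2) in WT replicates 1, 2 and 3, and at 13.9 (12.2 to 15.7), 10.6 (8.94 to 12.5) and 11.6 CPM (10.2 to 13.2) in KO replicates 1, 2 and 3. WT replicate 1 lies below all KO libraries and WT replicates 2 and 3 above them. By library name the log2 fold change was -0.40 (SE 0.29). By genotype field the level was 17.6 ± 3.8 CPM in KO and 10.4 ± 1.4 CPM in WT (SD, n = 3), higher in 3 of 3 KO libraries. The log2 fold change was 0.76 (SE 0.21), with an unadjusted p of 0.0042 and an adjusted p of 0.748 (edgeR). Myl2 parted along the same groups, at 174 to 357 against 25.7 to 33.4 CPM. The 4 adipocyte markers, all detected, had a median log2 fold change of -0.54 in this reading, with 0 of 4 past the test. Their summed level was 10.8 to 40.9 CPM in KO and 9.54 to 54.4 CPM in WT. The part of these other tissues in the values of Nos3 and Procr was not tested. Without WT replicate 1 the log2 fold change of Nos3 was -0.69 by library name and 0.65 by genotype field, and that of Procr was -0.48 and 0.55. Groups that do not overlap, with KO higher, were seen in 7.48% of all genes tested in that reading. Over the alternatives the adjusted p ran from 0.105, with the replicate number as a block, to 0.99998. Atg9b itself had 29 to 66 counts, at 2.44 to 3.46 CPM, and its 95% Poisson intervals overlap between all libraries. It was lowest in WT replicates 2 and 3, where Nos3 was highest. Its highest value was in KO replicate 1, the other library with the genotype field KO.

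Entpd1 (CD39), which hydrolyses ATP and ADP, was highest in WT replicate 3. The gene (ENSMUSG00000048120, chromosome 19 at 40612366 to 40741602, plus strand) was at 42.8, 43.8 and 62.7 CPM in WT replicates 1, 2 and 3, and at 44.2, 54.2 and 43.3 CPM in KO replicates 1, 2 and 3. Apart from WT replicate 3 and KO replicate 2, the libraries lie between 42.8 and 44.2 CPM. The log2 fold change was -0.08 (SE 0.18) by library name and 0.11 (SE 0.17) by genotype field.

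**Figure D3:**
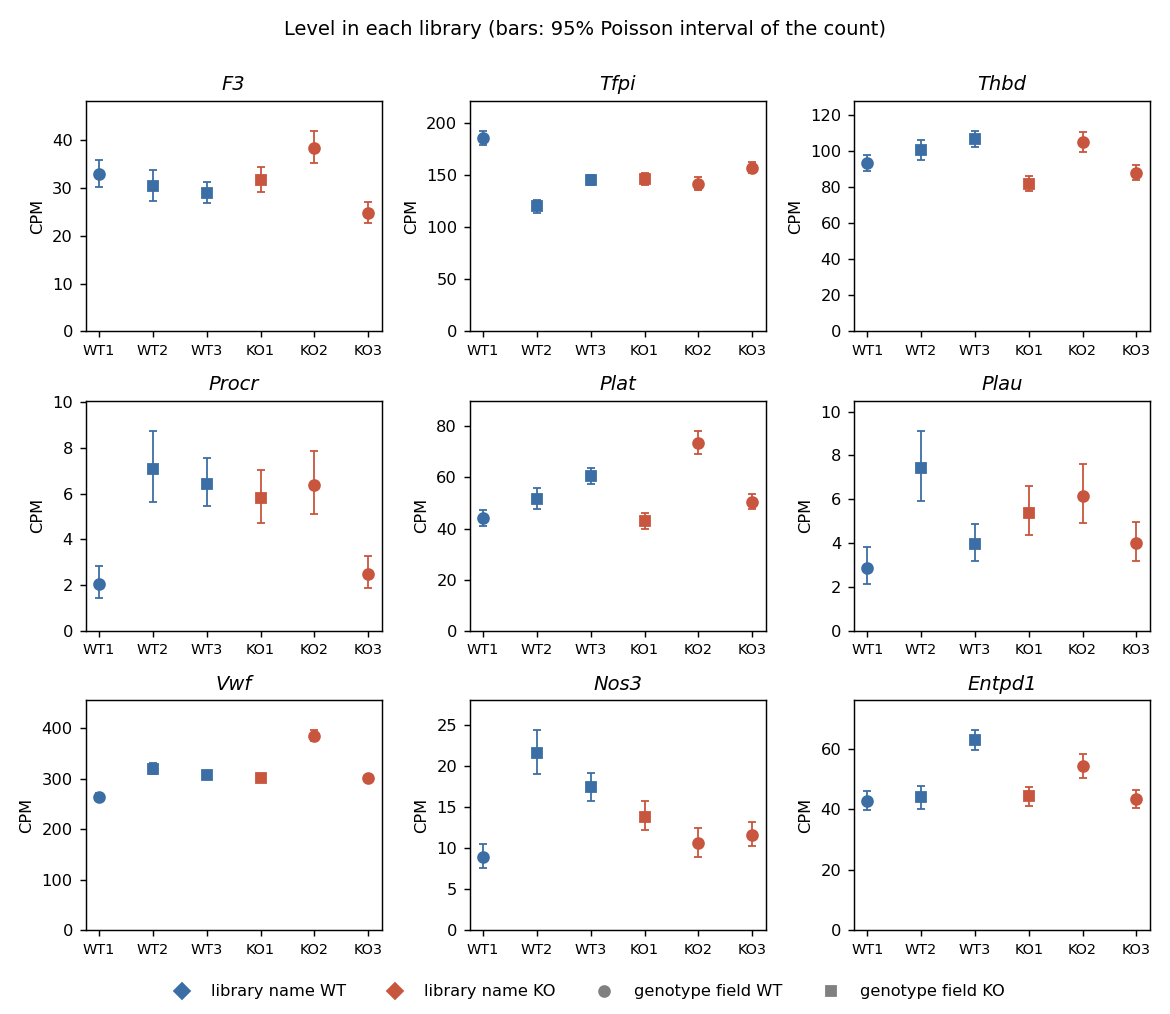
Level of each gene in CPM (vertical axes, from 0) in the 6 libraries, coloured by library name and shaped by genotype field, with 95% Poisson intervals of the count. Procr is low in WT replicate 1 and KO replicate 3 (2.04 and 2.50 CPM), and Nos3 is higher in the 3 libraries with the genotype field KO.

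The 2 readings and the libraries that Prkce contradicts were compared through the same members. Without WT replicate 2 and KO replicate 3, the libraries at odds by library name, the log2 fold change was 0.50 (SE 0.48) for Procr, 0.75 (SE 0.38) for Plau and -0.11 (SE 0.33) for Nos3. That leaves 2 libraries a group, and none of the 9 passed, each at adjusted p = 0.999 (edgeR). Without KO replicate 2 and WT replicate 3, those at odds by genotype field, it was 1.48 (SE 0.37) for Procr, 0.87 (SE 0.37) for Plau and 0.76 (SE 0.29) for Nos3, each at adjusted p = 0.837. These 4 libraries had been chosen by the level of Prkce. In the 4 libraries whose names start with a number, the readings are mirror images, and there Nos3 was at 0.80 and Procr at 0.62 by genotype field, both with the sign turned by library name.

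The members were also set against the endothelial markers, which differ in level between libraries. On that scale the groups parted for Vwf by library name and for Nos3 by genotype field, and neither passed after adjustment. The mean log2 level of the 12 markers ranged over 0.36 between libraries, lowest in WT replicate 1 and highest in WT replicate 3. Relative to that mean, Vwf was higher in 3 of 3 KO libraries by library name, at 1.95 ± 0.12 against 1.74 ± 0.08 on the log2 scale (SD, n = 3). The groups parted narrowly, with KO replicate 3 at 1.85 and WT replicate 1 at 1.82. Groups with KO higher make up 3.33% of all genes on the CPM scale, and no share was taken relative to the markers. The difference of 0.21 had p = 0.1 in a two-sided exact permutation test, the smallest that 3 against 3 allows, and 0.9 adjusted over the 9 members. By genotype field Nos3 was higher by 0.61 relative to the markers (exact permutation p = 0.1, adjusted 0.45). In that reading groups with KO higher make up 7.48% of all genes on the CPM scale. Procr was higher by 0.85, while Tfpi and Thbd differed by -0.36 and -0.12 (each with exact permutation p = 0.2, adjusted 0.45). Procr still ranged over 1.38 on this scale, and Thbd over 0.28.

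**Figure D4:**
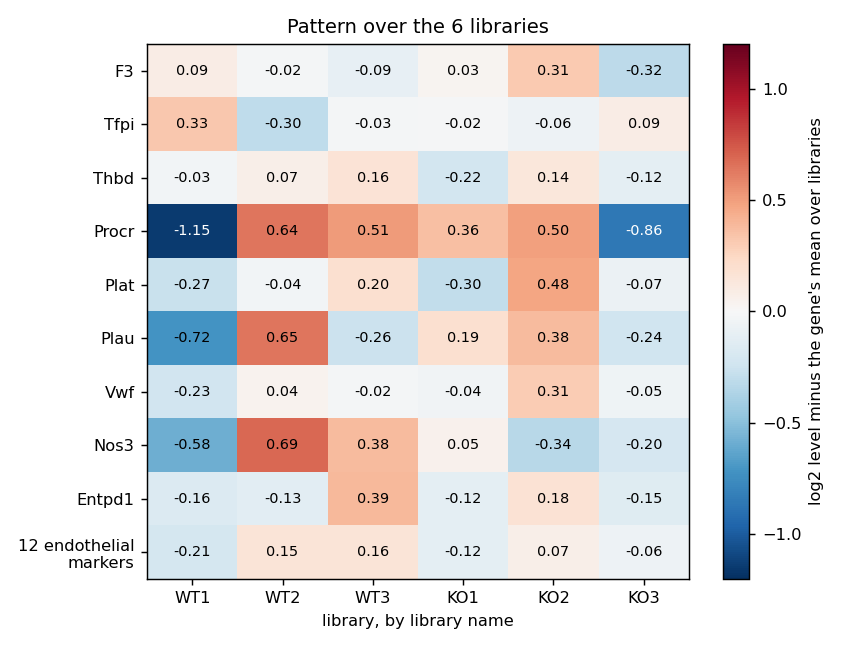
Log2 level of each gene minus its own mean over the 6 libraries, with the mean of 12 endothelial markers in the last row; columns are libraries by library name. Procr spans -1.15 to 0.64 and Plau -0.72 to 0.65, while Thbd stays between -0.22 and 0.16 and the markers between -0.21 and 0.16.

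The members did not share 1 pattern over the 6 libraries. Pearson's r of log2 CPM between members, a description over 6 libraries that share depth and tissue makeup, ran from -0.92 for Tfpi and Plau to 0.85 for Plat and Vwf. Procr went with Plau (0.80) and against Tfpi (-0.86), and Nos3 also went against Tfpi (-0.84). Tfpi was highest and Procr, Plau, Vwf, Nos3 and Entpd1 were lowest in WT replicate 1. Among the 10541 genes with a mean of at least 5 CPM, those most like each member reached r of 0.97 to 1.00. For Procr they were Tubb2a, a tubulin, and Col4a2, a basement membrane collagen (0.99 each). For Tfpi they were Phkb, a subunit of phosphorylase kinase, and Zfp275, and for Nos3 Lmf1, a lipase maturation factor, and Tmem200b. Thbd was most like Pdia3 and Erp44, which act in protein folding in the endoplasmic reticulum, and Entpd1 most like Tram1 and Aqp1, the latter a water channel of endothelium. The matches were Nup37 and Zfp12 for F3, Ttc9 and Tlr4 for Plat, Pfdn6 and Jpt1 for Plau, and Snrpd1 and Mrps25 for Vwf. With 6 libraries and this many genes, high values of r are found for any pattern.

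The wider pathway was followed in 69 further genes, of which 45 passed the filter on low counts. By library name 16 of the 45 were higher and 29 lower in KO, with a median log2 fold change of -0.07 (all genes -0.02, with 45.5% higher), and 0 passed in any of the 3 tools. Before adjustment 2 of the 45 had p under 0.05 in edgeR, F5 and Klf4, against 1.49% of all genes, while DESeq2 gave 2 and limma-voom 1. By genotype field 20 were higher and 25 lower, with a median of -0.08 (all genes -0.01, with 48.1% higher), and again 0 passed. Before adjustment edgeR had 6 of the 45 with p under 0.05, against 5.69% of all genes. DESeq2 had 7 and limma-voom 4. The share of all genes was taken in edgeR alone, so the counts of the other tools have no like share. In the coagulation factor list the genes tested were F5, F8, F13a1, Ggcx, Mcfd2 and Lman1. The last 3 are not clotting factors but act in making or exporting them. In the anticoagulant list they were Tfpi2, Pros1, Anxa5, Hs3st1, Gas6 and Vtn, not all of which only oppose clotting. By library name 0 of 6 and 5 of 6 of these lists were higher in KO. By genotype field 0 of 6 and 4 of 6 were, with 0 of these genes past the test. The lists are therefore not read as a direction of clotting. The readings share WT replicate 1 as WT and KO replicate 1 as KO, so their counts are not independent. Of 8 fibrinolysis genes, 3 were higher by library name and 5 by genotype field. Of 6 thrombin and purine receptors, 1 was higher by library name and 1 by genotype field. With the replicate number as a block, 2 passed by genotype field, against 0.347% of all genes. They were Sox18, an endothelial transcription factor (0.81, SE 0.15, adjusted p = 0.0226), and Ptgs2, an inducible prostaglandin synthase (0.75, SE 0.16, adjusted p = 0.0447, edgeR), at adjusted p = 0.868 and 0.904 without the block. By library name Sox18 was at -0.32 (SE 0.43) and Ptgs2 at -0.28 (SE 0.52). The groups of both genes overlap by genotype field. There Sox18 was at 30.6 to 58.2 CPM in KO and 15.2 to 33.1 CPM in WT. Ptgs2 was at 20.1 to 60.8 CPM in KO and 15.3 to 29.5 CPM in WT.

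The groups of the direct partners named here overlapped in both readings, and none passed the test. Plaur, the receptor of Plau, was at 5.88, 9.34 and 19.4 CPM in WT replicates 1, 2 and 3, and at 7.55, 6.16 and 8.32 CPM in KO replicates 1, 2 and 3. It was highest in WT replicate 3, and its log2 fold change was -0.66 (SE 0.38) by library name and 0.84 (SE 0.34) by genotype field, with an unadjusted p of 0.0325 and an adjusted p of 0.868 in the latter (edgeR). Ranges of the next 5 genes are by library name. Serpine2, an inhibitor of plasminogen activators, was at 55.0 to 81.5 CPM in WT and 66.7 to 92.2 CPM in KO. Pros1 (protein S), the cofactor of activated protein C, was at 56.2 to 58.6 CPM in WT and 51.8 to 71.5 CPM in KO. F2r, the thrombin receptor PAR1, was at 116.1 to 160.7 CPM in WT and 114.8 to 153.9 CPM in KO. Nt5e (CD73), which makes adenosine from the AMP that Entpd1 leaves, was at 22.9 to 34.1 CPM in WT and 22.8 to 24 CPM in KO. Ptgis, the prostacyclin synthase, was at 44.3 to 81.6 CPM in WT and 54.7 to 81.0 CPM in KO. By genotype field their log2 fold changes ran from -0.14 for F2r to 0.34 for Ptgis.

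Of the transcription factors that drive Thbd and Nos3 in endothelium, Klf2 overlapped between groups in both readings and Klf4 in 1 of them. Klf2 was at 95.1, 109.7 and 72.6 CPM in WT replicates 1, 2 and 3, and at 95.9, 87.1 and 71.5 CPM in KO replicates 1, 2 and 3. Klf4 was at 87.3, 99.9 and 102.0 CPM in the first group and at 69.8, 75.9 and 70.0 CPM in the second, lower in 3 of 3 KO libraries by library name. Its log2 fold change of -0.42 (SE 0.14) did not pass, with an unadjusted p of 0.0103 and an adjusted p of 0.99993 (edgeR). By genotype field Klf4 was at 0.22 (SE 0.17), with overlapping groups. Groups that do not overlap, with KO lower, were seen in 2.62% of all genes by library name. The next smallest p belonged to F5, coagulation factor V, at 1.18 to 3.06 CPM in WT and 0.65 to 1.08 CPM in KO (-1.11, SE 0.48), and to Erg, an endothelial ETS factor, at 28.9 to 34.0 and 37.3 to 40.2 CPM (0.29, SE 0.15). F5 had 9 to 51 counts per library, and the 95% Poisson interval of WT replicate 2 (0.64 to 1.98 CPM) holds the values of all KO libraries. Without WT replicate 1 the log2 fold change of F5 was -0.68 by library name. By genotype field F5 was at -0.27 (SE 0.57) and Erg at -0.12 (SE 0.16). By genotype field the smallest p belonged to Lrp1, a clearance receptor of plasminogen activators and their inhibitors (0.58, SE 0.16), Mmrn1, which binds factor V in platelets and endothelium (-1.13, SE 0.38), and Gata2, an endothelial transcription factor (0.42, SE 0.15). These were at adjusted p = 0.694, 0.786 and 0.833 (edgeR), and DESeq2 gave Mmrn1 no adjusted p. By library name Lrp1, Mmrn1 and Gata2 were at -0.22 (SE 0.23), 0.03 (SE 0.53) and -0.21 (SE 0.19), each of the opposite sign. As 4 of the 6 libraries swap groups between the readings, the signs are not independent.

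Transcripts of several clotting proteins that circulate in plasma were at 0 counts. Of the 69 genes, 10 had 0 counts in all 6 libraries. Of these, Serpind1, F2rl2, P2ry12 and Cav1 are wholly overlapped by other annotated genes, and no value is given for them. The other 6 were the fibrinogen chains Fga, Fgb and Fgg, the factor XIII subunit F13b, plasminogen (Plg) and Proc (protein C). For these, 0 counts allow up to 0.132 to 0.252 CPM per library (3 counts, counting error only). Serpinc1 (antithrombin) had 0 to 3 counts and Adamts13, the protease that cuts Vwf, 0 to 6 counts per library.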

How the data were processed

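RNA of whole atria was sequenced in 6 libraries. Per the labels' protocols, atria were flash-frozen, RNA was isolated on RNeasy columns and libraries were made with the unstranded TruSeq kit for RNA (v2). The authors deposited raw read counts per Ensembl gene for 54838 genes. Per the submitters' processing notes reads were mapped to GRCm38 and counted, with HISAT2 2.1.0, featureCounts 1.5.0-p3, MultiQC 1.7 and FastQC 0.11.5 named. Not given in the sources used here are the annotation release and counting settings. Positions, exon lengths and overlaps came from GENCODE M21 (GRCm38), which holds 54809 of the genes.

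The counts were tested with edgeR 4.0.16 (R 4.3.3): TMM normalisation, filterByExpr, robust quasi-likelihood F test, two-sided, Benjamini-Hochberg adjustment over all 14708 genes tested, threshold 0.05. The SE was taken as the size of the log2 fold change divided by the root of F. CPM values are TMM-scaled. Log2 levels for patterns and for members relative to markers used a prior count of 2. Alternatives used limma-voom (limma 3.58.1) and DESeq2 1.42.0. Every pair of libraries differed by more than counting noise (chi-square over its degrees of freedom, 18.8 to 61.9). Intervals and the limit of 3 counts cover counting error only. The labels call the samples biological replicates.

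The labels give each replicate number to 1 library of each group. Same-numbered libraries deviated together, with correlations of 0.12 to 0.16 by library name and 0.12 to 0.27 by genotype field, so the number was also fitted as a block. WT replicate 1 and KO replicate 1 are also the libraries whose names start with Old, and the names of the rest start with a number. The block and this library series are therefore partly the same.

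The members and the gene lists were chosen with earlier results of these data known. Named pathway genes were the direct partners of the members (1 is not reported here), the 3 with the smallest p in each reading and any that passed; for each member the 2 genes most like it were named. Atg9b, Myl2 and the members singled out without the libraries at odds with Prkce were named after their values were seen.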

Additional observations from a re-analysis of the deposited data

How the results depend on the processing

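Over 18 alternatives in each reading, the number of members that passed was 0, and no member moved past the threshold. By genotype field DESeq2 gave Procr and Plau no adjusted p, so these genes could not pass there. The number of genes called over the whole table by library name was 0, and it became 1 without the low-count filter, 3 in the numbered libraries alone and 6 without the libraries at odds with Prkce; leaving out single libraries gave 0 to 4. By genotype field it was 2, and became 27 in DESeq2, 1 in limma-voom, 25 without the filter, 51 with the replicate block, 7 with the library series as covariate and 0 to 2 leaving out single libraries; the block also took the pathway genes from 0 to 2. The block changed no other call. The cause of these changes was not tested.

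Directions of the members near 0 turned. By library name Procr was 0.034 with the series as covariate, 0.37 with the endothelial level as covariate and 0.50 without the libraries at odds with Prkce. Tfpi was 0.018 with upper-quartile factors, 0.0026 in limma-voom, 0.0017 with the replicate block, 0.024 with the Y-linked level as covariate and 0.17 in the numbered libraries, where Plau was -0.14; Plat was -0.064 with the Y-linked covariate. By genotype field, with the endothelial covariate, Thbd was -0.11 and Entpd1 -0.034; without the libraries at odds with Prkce, Thbd was -0.0034, F3 0.10 and Vwf 0.13. Leaving out single libraries by library name gave -0.48 to 0.24 for Procr, -0.15 to 0.16 for Tfpi, -0.12 to 0.19 for F3, -0.15 to 0.26 for Plat, -0.11 to 0.60 for Plau and -0.19 to 0.13 for Entpd1. By genotype field it gave -0.067 to 0.12 for Thbd, -0.23 to 0.073 for F3, -0.27 to 0.13 for Plat, -0.15 to 0.13 for Vwf and -0.087 to 0.23 for Entpd1. Nos3 kept its direction in each reading, at -0.80 to -0.11 and 0.56 to 0.90.

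Relative to the median of the endothelial markers, in place of their mean, the difference by library name was -0.027 for Procr, -0.018 for Tfpi, -0.00061 for F3 and -0.081 for Entpd1, and by genotype field 0.014 for Thbd and 0.10 for Entpd1. Leaving out single libraries gave -0.12 to 0.0053 for Thbd, -0.37 to 0.47 for Procr, -0.14 to 0.35 for Tfpi, -0.016 to 0.26 for F3, -0.025 to 0.27 for Plat and -0.13 to 0.12 for Entpd1 by library name, and -0.16 to 0.094 for Entpd1 by genotype field. The depth limits Procr (34 to 147 counts) and Plau (48 to 95 counts) most.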
